A study of Mus musculus with 172 samples.

Results

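The acyl-CoA dehydrogenases are flavin enzymes that insert a double bond into an acyl group bound to coenzyme A. For the straight chains of fatty acids this is the opening step of each round of mitochondrial beta-oxidation, and for the breakdown products of leucine, isoleucine and valine it is an early step of their catabolism. The electrons pass to the electron transfer flavoprotein, made of Etfa and Etfb, and from there through Etfdh to ubiquinone in the respiratory chain. Liver oxidizes much fatty acid, whereas neurons use little of it, and Acads, the short-chain member, was linked in earlier mouse genetics to the theta rhythm of the sleep EEG. The genes were taken by name, from knowledge of the family and not by their values, though earlier results of these data were known. They are *Acads*, *Acadm*, *Acadl*, *Acadvl* and *Acad9*, which act on straight chains, *Ivd*, *Acadsb* and *Acad8*, which act on branched chains, and the less studied *Acad10* and *Acad11*. All 10 were listed in all 4 expression tables, out of 16308 genes listed in either tissue and 12695 listed in both.

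Cerebral cortex and liver were taken from adult male mice of the BXD panel, whose recombinant inbred lines carry a mosaic of C57BL/6J (B6) and DBA/2J (D2) genomes. Mice were either left undisturbed (Ctr) or kept awake by gentle handling for 6 h from light onset (SD), and both groups were killed 6 h after light onset. Each combination of tissue and condition held 39 pools, namely 33 BXD/RwwJ lines, start and end pools of both parental strains (4 pools) and the reciprocal F1 hybrids B6D2F1 and D2B6F1 (2 pools). Another 4 BXD/TyJ lines were described apart, so that 172 libraries were read in all. RNA of the mice of a line and condition had been pooled before 1 library was made, so the pool was the unit and the p values measure the spread between pools. In these bulk tissues, fewer cells of a type and less RNA per cell cannot be told apart.

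The libraries held 18995492 to 28998853 counted reads in cortex Ctr and 19025159 to 28685060 in cortex SD, against 5034166 to 8269401 in liver Ctr and 4681101 to 8009362 in liver SD. Markers of neurons were all listed in cortex (5 of 5, 8278 CPM in sum at the Ctr median), and none of the 5 hepatocyte markers was listed there. All 5 hepatocyte markers were listed in liver, where their sum ranged from 1245 to 2126 CPM in Ctr pools, and 2 of the 5 neuron markers were listed. In liver, 4 libraries stood apart in the dehydrogenases. The D2B6F1 Ctr library was above the Ctr median in 10 of 10 members and highest of all in 5, BXD81 Ctr was below the median in 10 of 10 and lowest in 7, BXD70 SD was above the SD median in 9 of 10 and highest in 6, and the B6 start pool in SD was below it in 10 of 10 and lowest in 4. The median of all genes in these libraries lay within 0.0165 of the median of the pools on the log2 scale, against 0.30 for the members in D2B6F1 Ctr and 0.32 in BXD70 SD. D2B6F1 Ctr and BXD70 SD had the fewest reads of the 39 libraries of their condition (5034166 and 4681101), whereas BXD81 Ctr (7478167) and the B6 start pool in SD (7491781) were at places 36 and 33 from the lowest. The part of depth in these levels was not tested.

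Levels are given first, on the log2 CPM scale of the deposited tables, that is, reads scaled to a common library total. The tables of cortex and liver had been normalized separately, so levels were set side by side between tissues and not tested. To compare genes within a tissue, CPM was divided by the exonic length of the gene. That length joined all GENCODE exons of the gene, whereas the reads had been counted on RefSeq genes. The orders per kilobase depend on this length, and no other was tried.

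*Acads* encodes the dehydrogenase of short chains and lies at chr5:115560308-115569355 on the minus strand of mm9. In cortex its Ctr level ranged from 1.89 (BXD48) to 2.86 (BXD55) with a median of 2.48 log2 CPM, and its SD level from 1.93 to 2.64 with a median of 2.31. All 39 SD pools lay inside the Ctr range, and 29 of them lay below the Ctr median. In liver the Ctr level ranged from 7.48 (BXD81) to 8.01 (BXD50) around a median of 7.70, and the SD level from 7.42 (B6 start pool) to 8.37 (BXD70) around the same median of 7.70. Per kilobase of exon *Acads* stood at 2.46 CPM in the median cortex Ctr pool, the ninth place of the family, and at 91.7 CPM in liver, 4 from the top. No other member moved as far up the order of the family between cortex and liver.

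*Acadm*, *Acadl* and *Acadvl* take medium, long and very long chains. In cortex *Acadvl* (chr11:69823685-69828913, minus strand) ranged from 5.32 to 5.77 in Ctr with a median of 5.56, and from 5.44 to 5.83 in SD with a median of 5.62. *Acadl* (chr1:66877413-66909851, minus strand) spanned 4.49 to 5.03 in Ctr with a median of 4.76, and 4.50 to 5.20 in SD with a median of 4.80. *Acadm* (chr3:153585321-153607596, minus strand) kept to a narrower band, 4.71 to 5.06 in Ctr and 4.76 to 5.05 in SD. The Ctr and SD ranges of all 3 genes overlapped over most of their width. In liver the Ctr medians were 8.58 for *Acadvl*, 7.82 for *Acadl* and 8.04 for *Acadm*, and the highest SD value of each was that of BXD70. *Acad9* (chr3:35964901-35993866, plus strand), best known as an assembly factor of respiratory complex I, was the most even member in cortex, with 5.24 to 5.43 in Ctr and 5.24 to 5.46 in SD. Its liver level ranged from 7.04 to 7.499 in Ctr around a median of 7.26 and from 6.93 to 7.44 in SD around a median of 7.14, and 34 of 39 SD pools fell below the Ctr median.

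Among the members for branched chains, *Ivd* (isovaleryl-CoA dehydrogenase of leucine breakdown, chr2:118687690-118708645, plus strand) covered the widest cortex range of the family, from 4.99 (BXD56) to 6.12 (BXD85) in Ctr with a median of 5.88, and from 4.93 to 5.91 in SD with a median of 5.69. *Acadsb* (isoleucine breakdown, chr7:138554115-138589725, plus strand) ranged from 5.91 to 6.30 in cortex Ctr with a median of 6.16 and from 5.95 to 6.23 in SD with a median of 6.05. The ranges overlapped, yet 38 of 39 SD pools lay below the Ctr median of *Acadsb* and 35 of 39 below that of *Ivd*. *Acad8* (valine breakdown, chr9:26781720-26807151, minus strand) ranged from 4.27 to 4.62 in cortex Ctr and from 4.26 to 4.58 in SD. In liver the Ctr medians of *Ivd*, *Acadsb* and *Acad8* were 8.0, 8.16 and 7.42.

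*Acad10* (chr5:122071035-122110523, minus strand) was the scarcest member in cortex, with 1.82 to 2.44 in Ctr around a median of 2.13 and 1.502 to 2.47 in SD around a median of 1.97. As many as 36 of 39 SD pools lay below its Ctr median. *Acad11* (chr9:103942992-104029976, plus strand), whose product prefers very long chains, had cortex medians of 4.83 in Ctr and 4.79 in SD, and in liver a Ctr range of 8.52 to 9.15 around 8.75 and an SD range of 8.67 to 9.06 around 8.81. Both genes share sequence with another gene, since 10.03% of the 100-base words of *Acad10* exons also occur in its paralog *Acad12* and 2.85% of those of *Acad11* are not unique to it. Their values therefore carry some uncertainty about the assignment of reads. The other 8 members shared no such word with a protein-coding transcript of another gene. Pseudogenes and noncoding genes were not searched.

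**Figure D1:**
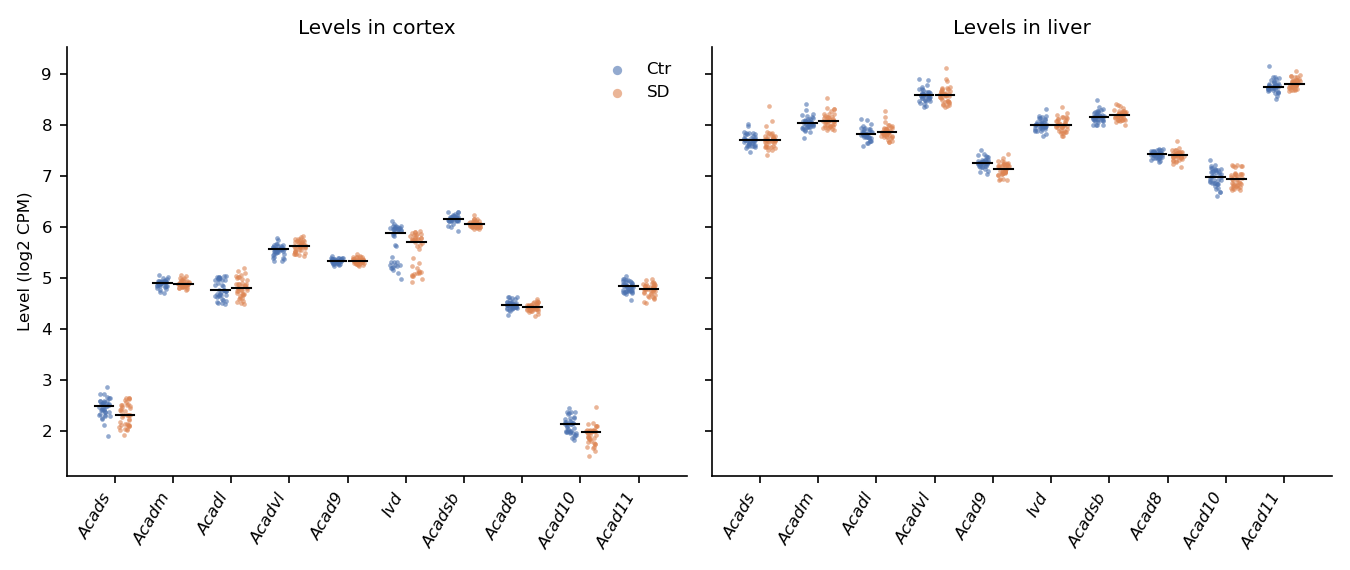
Levels of the 10 acyl-CoA dehydrogenases in cortex (left) and liver (right). The y axis is log2 CPM, each point is 1 of 39 pools in Ctr (blue) or SD (orange), and the black line is the median. Acads and Acad10 lie near 2 in cortex and near 7 to 8 in liver, and the cortex points of Ivd fall into separate clouds in both conditions.

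Per kilobase, the cortex order in Ctr was *Acadvl* (17.5 CPM per kb, median), *Acadsb* (15.97), *Acadl* (13.5), *Ivd* (10.7), *Acadm* (10.2), *Acad11* (7.12), *Acad8* (5.31), *Acad9* (4.83), *Acads* (2.46) and *Acad10* (0.722). Neighbours were compared by the mean and standard deviation (s.d.) of their log2 difference within a pool. *Acadvl* and *Acadsb*, and *Ivd* and *Acadm*, did not differ beyond that s.d. (0.12 with an s.d. of 0.14, and -0.12 with an s.d. of 0.37), while the other neighbours did. The step from *Acads* down to *Acad10* was the largest in cortex, at 1.77 on the log2 scale (s.d. 0.24, 39 of 39 pools).

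The liver order in Ctr was *Acadvl* (142 CPM per kb), *Acadl* (113), *Acad11* (108.04), *Acads* (91.7), *Acadm* (89.7), *Acadsb* (64.1), *Ivd* (46.5), *Acad8* (41.5), *Acad10* (20.8) and *Acad9* (18.4). *Acadl* and *Acad11* differed by 0.06 (s.d. 0.06) and *Acads* and *Acadm* by 0.04 (s.d. 0.06) within a pool, and neither difference exceeded its s.d. Very long chain *Acadvl* thus had the highest median in both tissues, though in cortex it did not differ from *Acadsb* beyond the s.d. The members for branched chains stood lower in liver than in cortex, where *Acadsb* and *Ivd* were among the top 4.

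The depth behind these values differed between the members. In cortex *Acads* rested on 80 to 182 reads per library and *Acad10* on 62 to 132, against 397 to 2069 reads for the other members there and 517 to 3440 for all members in liver. Counting error alone gave an s.d. of 0.13 for cortex *Acads*, where the lines had 0.19, and 0.15 for cortex *Acad10*, where the lines had 0.15. For *Ivd* in cortex the counting s.d. was 0.04 and that of the lines 0.37. The s.d. of the lines in cortex was 0.943 times that of counting for *Acad9*, 1.03 times for *Acad10*, 1.18 times for *Acad8*, 1.28 times for *Acadm* and 1.42 times for *Acads*, so that the spread between lines in these 5 members was hardly resolved from counting error at this depth.

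The next question was what sleep deprivation did to the family in cortex. With all SD pools set against all Ctr pools, the transcripts of *Acads*, *Acad10*, *Acadsb* and *Acad8* fell and that of *Acadvl* rose. The falls of *Ivd* and *Acad11* passed when each SD pool was set against the Ctr pool of its own line, as given below. These changes were small, the largest being a level 12.3% lower. A limma fit over all 14896 genes listed in cortex set the SD pools against the Ctr pools, and a Benjamini-Hochberg adjusted p under 0.05 was called a change. Of 10 members 5 were called, where 68.4% of all genes were, so the share of members called was not above the background. The median change of the members was -0.05 on the log2 scale, and that of all genes was -0.01.

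*Acad10* fell by 0.19 on the log2 scale (SE 0.039, 12.3% lower, limma adjusted p = 1.35e-05) and was lower after SD in 28 of 39 pools. *Acads* fell by 0.15 (SE 0.044, 9.89% lower, limma adjusted p = 0.00186) and was lower in 25 of 39 pools, with single pools ranging from -0.68 (BXD90) to 0.23 (BXD89). The 4 BXD/TyJ lines, which did not enter the fit, were lower in 4 of 4 for *Acads*, with a mean of -0.36. *Acadsb* fell by 0.10 (SE 0.016, limma adjusted p = 1.32e-08) in 35 of 39 pools, and *Acad8* by 0.05 (SE 0.017, limma adjusted p = 0.0172) in 26 of 39. *Acadvl* rose by 0.08 (SE 0.023, 5.87% higher, limma adjusted p = 0.00124) in 31 of 39 pools, yet in only 1 of the 4 BXD/TyJ lines, whose mean was -0.05.

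*Ivd* was lower after SD in 38 of 39 pools, BXD56 being the exception, and in 4 of 4 BXD/TyJ lines. Its change of -0.16 had an SE of 0.077 in the comparison of all SD with all Ctr pools, because the lines differ so much in *Ivd*, and it was not called (limma adjusted p = 0.0623). With the line as a block, which compares each SD pool with the Ctr pool of its own line, the SE was 0.016 and the change was called (limma adjusted p = 1.60e-12, range over all alternatives 7.65e-13 to 0.106). *Acad11*, at -0.05 (SE 0.024), was likewise not called without the block (limma adjusted p = 0.0594) and called with it (0.00420, range over alternatives 0.00420 to 0.124), and it was lower in 29 of 39 pools. With the block 7 of 10 members were called, 6 of them lower, where 76.3% of all genes were called. *Acadm* (-0.0044), *Acadl* (0.02) and *Acad9* (0.0045) were called under none of the 14 alternatives.

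Other genes of the pathways were counted by lists chosen with earlier results of these data known. Over all cortex genes 33.0% rose and 35.4% fell. Of 21 genes for the catabolism of branched-chain amino acids, 6 rose, 9 fell and 6 did not pass, with the largest changes in *Mccc2* (-0.41), a subunit of the carboxylase that follows Ivd in leucine breakdown, and *Bckdk* (-0.33), the kinase that inhibits the branched-chain ketoacid dehydrogenase. The electron acceptors *Etfa*, *Etfb* and *Etfdh* did not pass in 3 of 3 cases, with changes of 0.04, 0.02 and -9.2e-04, nor did the lysine pathway dehydrogenase *Gcdh* (0.04). Of 24 listed genes for other steps of fatty acid oxidation, 7 rose, 7 fell and 10 did not pass. *Ehhadh*, a peroxisomal enzyme of beta-oxidation, was lower by -0.42 and *Slc27a5* higher by 0.33. Among 9 regulators and their targets, 6 rose and 1 fell, with *Angptl4*, a lipase inhibitor and PPAR target, at 0.59 and the coactivator *Ppargc1b* at 0.23. The list medians were -0.02 for branched-chain catabolism, 0.01 for fatty acid oxidation and 0.22 for the regulators, beside -0.01 for all genes.

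Marker sums moved at the same time. The neuron list fell by 0.07 in the mean, in 34 of 39 pools, and the astrocyte list rose by 0.07, in 32 of 39 pools. The microglia and macrophage list rose by 0.04 in 31 pools and the endothelium list by 0.03 in 26. The oligodendrocyte list fell by 0.04 in 25. The choroid plexus list varied from 8.03 to 238 CPM between Ctr pools and up to 410 CPM in SD, with a mean change of -0.38 (18 pools up, 21 down). Of the 4 cholangiocyte markers only *Sox9* was listed in cortex, and it fell by 0.28 in 38 of 39 pools. This is the value of 1 gene and no measure of a cell type. The pancreas list fell by 0.27 in 30 pools, on 2 of its 5 genes, and the pituitary list by 0.24 in 23, on 2 of 4. The stellate cell list fell by 0.13 in 34 and the muscle list by 0.12 in 31. The part of these shifts in the changes of the dehydrogenases was not tested.

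Upstream sequences are shown for the 4 members whose cortex level was lower by 0.10 or more after SD, so that what they share and do not share can be read beside their changes. They were taken from the RefSeq promoter table of the GRCm38.p6 assembly, where 9 of the 10 members had an entry (*Acad9* had none), and each was found once, without mismatch, in mm9. Each runs 5′ to 3′ toward the start of its gene, with the bases removed that the older GENCODE annotation places inside the gene. They are *Acads* at chr5:115119347-115119596 (minus strand), *Ivd* at chr2:118861744-118861953 (plus strand), *Acadsb* at chr7:131410351-131410600 (plus strand) and *Acad10* at chr5:121660515-121660760 (minus strand). Capitals mark a GC box (GGGCGG, or CCGCCC when it lies on the other strand) or a CCAAT box (CCAAT, or ATTGG on the other strand).
Acads: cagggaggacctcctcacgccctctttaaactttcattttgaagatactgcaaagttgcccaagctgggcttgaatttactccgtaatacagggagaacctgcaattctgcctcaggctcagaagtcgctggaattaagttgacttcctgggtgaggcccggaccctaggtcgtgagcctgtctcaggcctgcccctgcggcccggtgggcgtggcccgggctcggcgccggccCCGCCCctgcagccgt
Ivd: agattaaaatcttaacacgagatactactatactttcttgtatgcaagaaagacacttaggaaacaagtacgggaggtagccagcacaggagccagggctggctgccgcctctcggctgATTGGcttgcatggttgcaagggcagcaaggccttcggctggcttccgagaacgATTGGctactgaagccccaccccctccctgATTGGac
Acadsb: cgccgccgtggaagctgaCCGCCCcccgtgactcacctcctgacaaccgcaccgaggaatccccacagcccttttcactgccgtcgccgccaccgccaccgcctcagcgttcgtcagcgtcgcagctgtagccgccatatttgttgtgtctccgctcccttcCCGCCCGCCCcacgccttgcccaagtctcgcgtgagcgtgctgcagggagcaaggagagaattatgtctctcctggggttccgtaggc
Acad10: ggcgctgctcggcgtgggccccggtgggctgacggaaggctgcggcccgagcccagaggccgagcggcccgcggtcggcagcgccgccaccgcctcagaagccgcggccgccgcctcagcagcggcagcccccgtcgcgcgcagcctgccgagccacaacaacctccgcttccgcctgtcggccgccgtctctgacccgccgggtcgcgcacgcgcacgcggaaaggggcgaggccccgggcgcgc

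The GC box occurred in *Acads* and in *Acadsb*, the CCAAT box in *Ivd*, and neither in the stretch of *Acad10*. Over the full 250 bases upstream of the RefSeq start, 5 of the 9 members held a GC box, where 32.7% of 32851 promoter stretches of all genes did, and 3 of 9 held a CCAAT box (*Ivd* with 4 copies, *Acad8* and *Acad11*), where 33.8% did. The CCAAT box was added to the search after the sequences had been seen. The nuclear receptor motif AGGTCA was found in *Acadm* and *Acadvl* (14.02% of all stretches), the longer AAGGTCA, which contains it and is the form bound by estrogen-related receptors, in *Acadm* alone (4.08%), and the E-box CACGTG in 0 of 9 (6.02%). Both strands were searched. None of these motifs thus occurred in all 4 of the stretches shown. *Acad8*, which also fell in cortex but by less, held 3 GC boxes and 1 CCAAT box in its 250 bases.

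**Figure D2:**
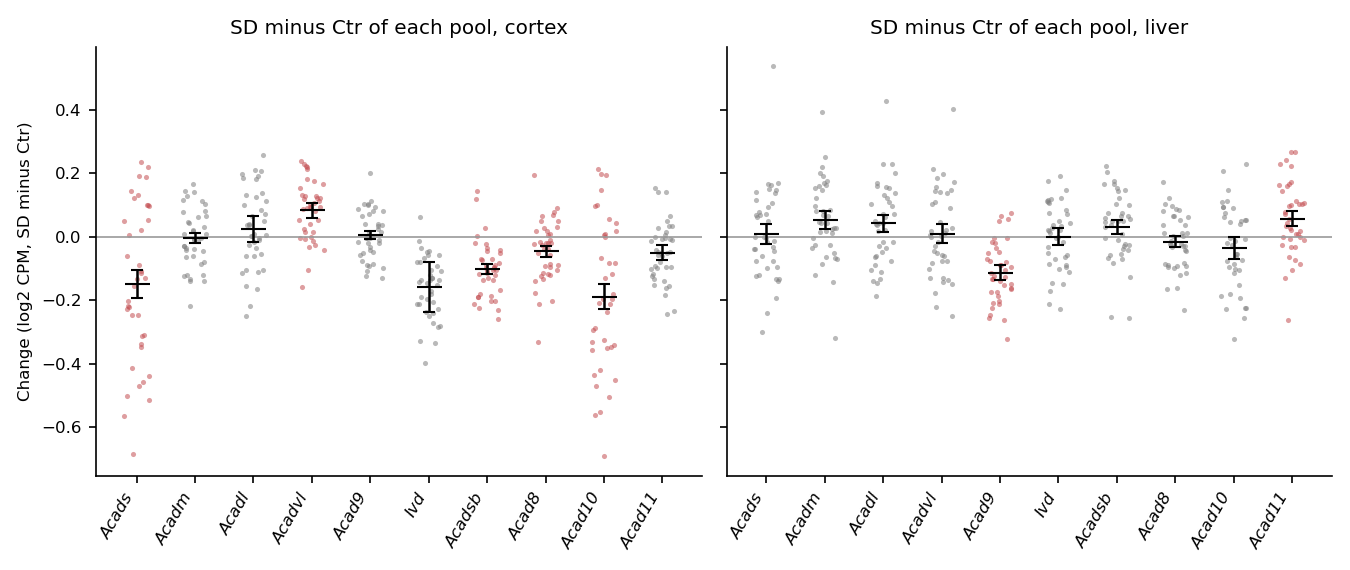
Change with sleep deprivation, SD minus Ctr of each pool on the log2 CPM scale, for the 10 members in cortex (left) and liver (right). Each point is 1 of 39 pools, the bars are the mean and its standard error in limma without a line block, and red marks an adjusted p under 0.05. Ivd in cortex has 38 of 39 points below 0 but a wide error bar, because that standard error includes the differences between lines.

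In liver *Acad9* fell and *Acad11* rose with sleep deprivation, and the other 8 members did not pass. With 2 of 10 members called, where 44.2% of all 14107 liver genes were, the members stood below the background in this count. Their median change was 0.0091, beside -0.0015 for all genes. *Acad9* fell by 0.11 (SE 0.024, 7.57% lower, limma adjusted p = 5.74e-05), was lower in 35 of 39 pools and in 4 of 4 BXD/TyJ lines (mean -0.16), and was called under 16 of 16 alternatives. *Acad11* rose by 0.06 (SE 0.024, 3.93% higher, limma adjusted p = 0.0490), in 26 of 39 pools and 4 of 4 BXD/TyJ lines. This call was lost in 5 of 16 alternatives (range 0.0104 to 0.0950), among them the one without BXD81 (0.05).

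*Acads* itself changed by 0.0085 in liver (SE 0.032, 95% interval -0.05 to 0.07, limma adjusted p = 0.858), with 18 pools up and 21 down. The single pools ran from -0.30 (B6 start pool) to 0.54 (BXD70), and without BXD70 the change was -0.0054. *Acadm* at 0.05, *Acadl* at 0.04, *Acadvl* at 0.01 and *Ivd* at 2.2e-04 also had BXD70 or D2B6F1 at an end of their range, and *Acadm* passed with the line as a block (limma adjusted p = 0.0268, range over alternatives 0.0248 to 0.187), where 53.9% of all genes did. D2B6F1 had the lowest change of *Acadm* (-0.32), *Acadl* (-0.19), *Acadvl* (-0.25), *Ivd* (-0.23) and *Acad11* (-0.26), after its high Ctr library.

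Over all liver genes 21.5% rose and 22.6% fell. Around the members, 5 of 20 branched-chain genes fell and 0 rose, led by *Bckdk* (-0.30) and by *Ppm1k* (-0.12), the phosphatase that opposes *Bckdk*. Of 27 genes for other steps of fatty acid oxidation 5 rose and 3 fell. The fallers with the largest changes were the long-chain acyl-CoA synthetases *Acsl3* (-0.73) and *Acsl4* (-0.19), which activate fatty acids before oxidation or storage. Among 10 regulators and targets 2 rose and 2 fell, with *Angptl4* at 0.98 and *Pdk4*, the kinase that spares pyruvate when fat is burned, at -0.95. *Etfa* (0.02), *Etfb* (0.03), *Etfdh* (0.0061) and *Gcdh* (0.01) did not pass. The list medians were -0.0021 for branched-chain catabolism, 0.02 for fatty acid oxidation and 0.10 for the regulators, beside -0.0015 for all genes. Hepatocyte marker sums changed by 0.02, whereas the B-cell list fell by 1.33 in 39 of 39 pools, from a Ctr median of 12.3 CPM, and the 2 listed neuron markers by 0.80 in 39 of 39. Whether these move the values of the members was not tested.

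Whether the tissues of the same pool responded differently was tested on the SD minus Ctr value of its liver, less that of its cortex. Of 10 members 8 were called, against 57.6% of the 12695 genes listed in both tissues. The difference was 0.16 for *Acads* (SE 0.046, limma adjusted p = 0.00291), 0.16 for *Ivd* (SE 0.023, 1.05e-07), 0.13 for *Acadsb* (SE 0.021, 5.96e-07), 0.15 for *Acad10* (SE 0.047, 0.00504) and 0.11 for *Acad11* (SE 0.023, 1.41e-04), so these members went lower in cortex than in liver. *Acad9* went the other way, at -0.12 (SE 0.020, 1.90e-06). *Acadvl* at -0.07 (limma adjusted p = 0.0280, range over alternatives 0.00495 to 0.126) and *Acadm* at 0.06 (0.0459, range 0.0183 to 0.0752) lost their call in 4 and 5 of 14 alternatives. Under quantile normalization the differences of *Acads* (0.09, limma adjusted p = 0.0700, range over alternatives 3.66e-04 to 0.0700) and *Acad10* (0.07, 0.194, range 0.00164 to 0.194) were no longer called. *Acadl* (0.02) and *Acad8* (0.03) did not pass. Over the 10 members the median difference was 0.08, beside -0.0033 for all genes.

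How far the lines differed was tested with an F test over 37 strains with condition as a covariate, in which the agreement between the Ctr and SD pools of a strain gave the residual. In cortex 4 of 10 members differed between strains, where 55.5% of all genes did. In liver 10 of 10 did, where 62.1% of all genes did, and 8 of 10 under quantile normalization, which lost *Acadsb* and *Acad11*. Liver Ctr libraries ranged from 5034166 to 8269401 reads. The line with the highest liver Ctr level of *Acads*, BXD50, had 5547752 reads there, and the lowest, BXD81, had 7478167. The part of depth in the strain differences was not tested. *Ivd* in cortex had F = 52.4 (limma adjusted p = 4.00e-26), with 98.0% of its variance between strains, at place 111 of 14896 genes by p. *Acadl* followed with F = 7.61 (87.1%, 1.92e-09), *Acad11* with F = 4.02 (80.2%, 2.73e-05) and *Acadvl* with F = 3.93 (78.6%, 3.66e-05).

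*Acads* did not pass in cortex (F = 1.31, 53.1% of the variance, limma adjusted p = 0.242), and *Acad9* had the smallest share, 39.8%. In liver *Acads* did pass (F = 3.15, 73.5%, limma adjusted p = 5.74e-04). The strongest strain effect in liver was that of *Acad10* (F = 5.01, 82.3%, limma adjusted p = 2.44e-06), then that of *Ivd* (F = 3.84, 78.9%), and the other members lay between 67.8% and 76.1%. The median F of all genes was 1.957 in cortex and 2.09 in liver. Because 37 strains share 78 libraries, a large part of the variance falls to strains by number alone, so the shares are to be read beside the F values.

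**Figure D3:**
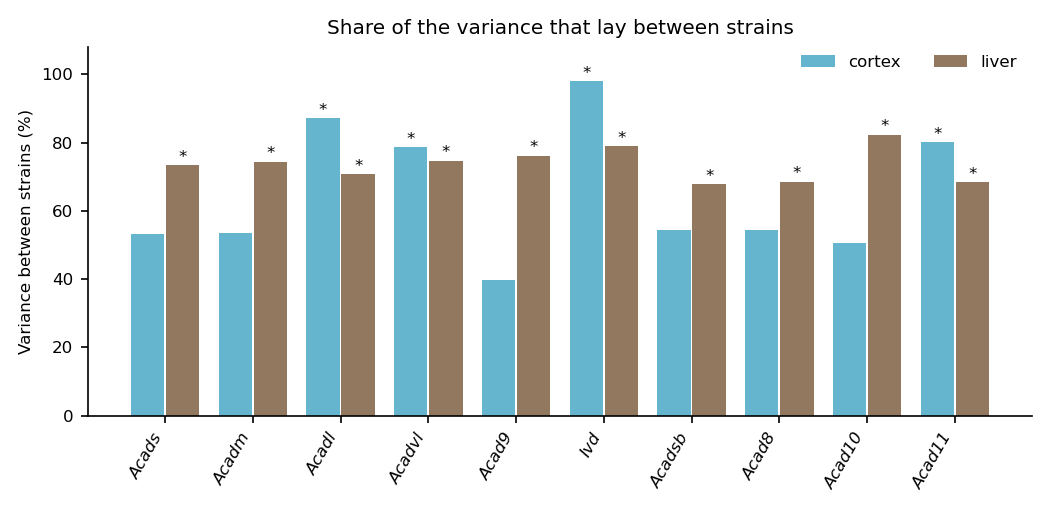
Share of the variance of log2 CPM that lay between the 37 strains, in percent, for each member in cortex (blue) and liver (brown). Stars mark a limma adjusted p under 0.05. Ivd, Acadl, Acad11 and Acadvl are starred in cortex, and all 10 members in liver.

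The cortex values of *Ivd* fell into separate clusters. In Ctr, 12 of the 33 BXD/RwwJ lines lay between 4.99 and 5.42 and the other 21 between 5.82 and 6.12, and the empty step of 0.41 between BXD66 and BXD98 took 36.1% of the whole range. After SD the same 12 lines were below a step from 5.29 to 5.62 and the same 21 above it. The D2 pools stood with the lower lines in Ctr, at 5.20 and 5.30, and the B6 pools with the upper ones, at 5.96 and 5.84. B6D2F1 at 5.65 and D2B6F1 at 5.62 lay inside the empty step. Of the BXD/TyJ lines 3 were in the lower cluster and BXD05, at 5.93, in the upper. No genotypes were used here, so alleles at *Ivd* were not assigned to the lines.

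In liver the same lines overlapped. *Ivd* ranged there from 7.78 to 8.18 in the 12 lines that were low in cortex and from 7.88 to 8.18 in the other 21, and the parental Ctr pools were at 8.04 and 8.02 (B6) and 8.04 and 7.97 (D2). Within the lower cluster the cortex and liver levels had r = 0.09 (rho = -0.03, n = 12, permutation p = 0.767), and within the upper cluster r = 0.33 (rho = 0.36, n = 21, permutation p = 0.140, 0.279 adjusted over both clusters).

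**Figure D4:**
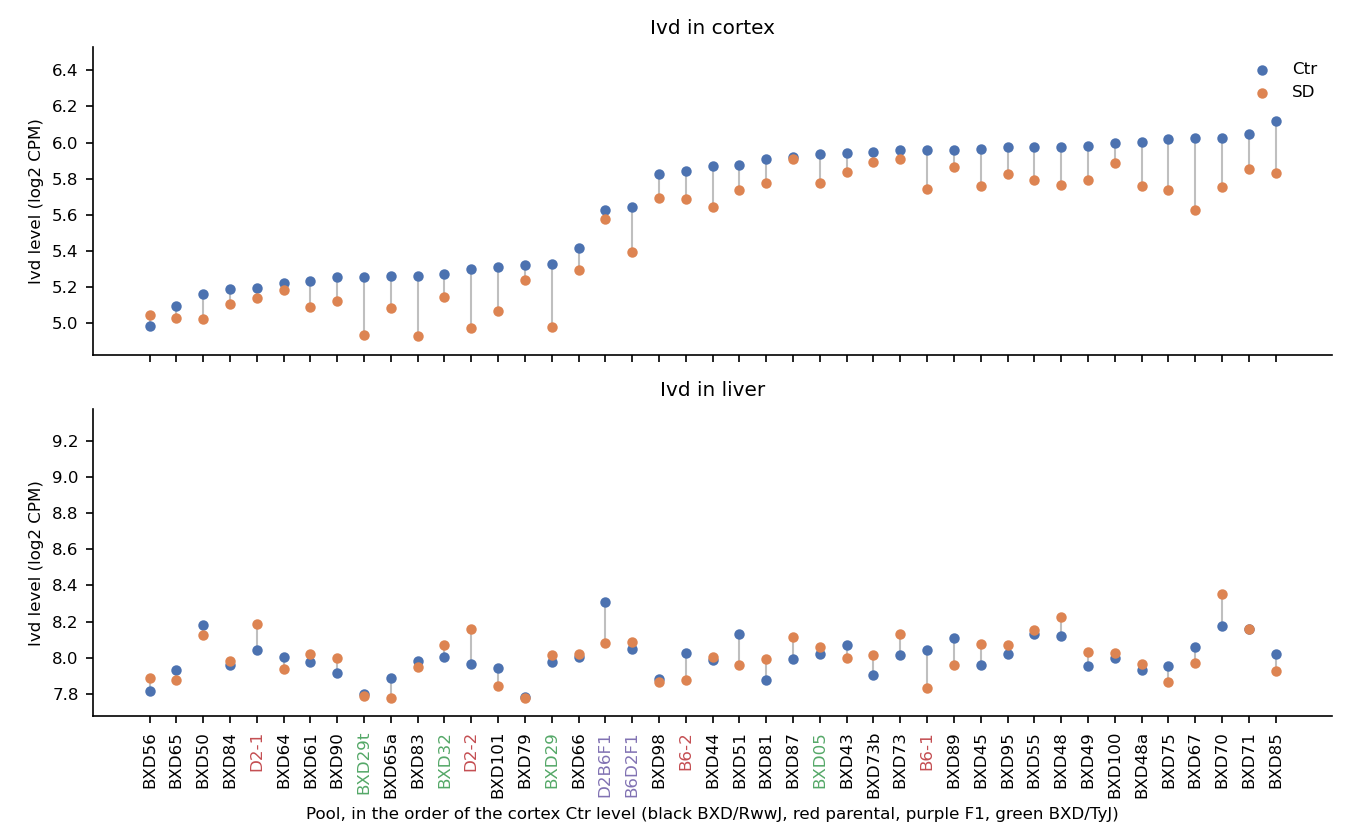
Ivd level in log2 CPM in cortex (top) and liver (bottom) for all 43 pools, in the order of the cortex Ctr level. Blue is Ctr, orange is SD, and the grey line joins the pair of a pool. The cortex values step up between 5.42 and 5.82 with only the F1 pools inside the step, and the liver values of the same pools show no such step.

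The parental strains differed in *Ivd* and *Acadvl* in cortex. With 2 of 10 members called, the family was near the 25.5% of all genes that were called between B6 and D2 there. D2 was lower than B6 in *Ivd* by a log2 difference of -0.66 (SE 0.051, limma adjusted p = 2.01e-07), with no overlap in Ctr or SD. *Acadvl* was higher in D2 by 0.26 (SE 0.044, limma adjusted p = 4.63e-04), with 5.37 and 5.33 in the B6 Ctr pools against 5.56 and 5.66 in D2. Both calls stood in 11 of 11 alternatives. *Acadl* took 87.1% of its cortex variance from strains although its parental Ctr pools were alike, with 4.86 and 4.76 in B6 and 4.76 and 4.76 in D2. In SD the parents did not overlap, with 5.05 and 4.88 in B6 and 4.76 and 4.77 in D2. Among the 33 lines 19 lay below both parents in Ctr and 13 above, and in SD 15 lay below and 4 above.

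In liver 1 of 10 members was called between B6 and D2, where 17.9% of all genes were. *Acads* was higher in D2 by 0.23 (SE 0.070, limma adjusted p = 0.0351), but called in only 7 of 11 alternatives (range 0.0160 to 0.204). The call was lost without the B6 start pool (0.23), the B6 end pool (0.23) or the D2 start pool (0.20). In Ctr the pools overlapped, with 7.72 and 7.64 in B6 and 7.81 and 7.70 in D2. They did so no longer in SD, with 7.42 and 7.51 in B6 and 7.86 and 7.84 in D2.

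Other members showed the same order of pools. In liver, 8 of 10 members fell with SD in both B6 pools and rose in both D2 pools, the exceptions being *Acad9* and *Acad10*, and 12.3% of all liver genes did the same. The SD livers of B6 held 7491781 and 7250062 reads and those of D2 held 5785013 and 5690812, a log2 depth of B6 over D2 of 0.36, against -0.0082 in Ctr, and the part of depth was not tested. *Acads* changed by -0.30 and -0.13 in the B6 pools and by 0.05 and 0.15 in the D2 pools, *Acadm* by -0.12 and -0.06 against 0.19 and 0.25, and *Ivd* by -0.21 and -0.15 against 0.15 and 0.19. The difference between the strains was then tested, an addition made after the values had been seen. It was called for 3 of 10 members, where 7.19% of all genes were, namely *Ivd* (0.35, SE 0.071, limma adjusted p = 0.0201, range over alternatives 0.00939 to 0.285), *Acadvl* (0.32, SE 0.071, 0.0258, range 0.0118 to 0.323) and *Acadm* (0.31, SE 0.077, 0.0363, range 0.0158 to 0.326). *Acads* had 0.31 (SE 0.085, 0.0502, range 0.0195 to 0.41). With any 1 of the 4 parental pools left out, which leaves 1 pool in a strain, limma called 0 of the 14107 genes, members included, with differences of 0.32 to 0.38 for *Ivd*, 0.27 to 0.37 for *Acadvl* and 0.28 to 0.34 for *Acadm*. No member was called with quantile normalization (3.87% of all genes called) or without a variance trend (0% of all genes), and 8 were called with libraries centred on their medians (11.4% of all genes). In cortex limma called 0 of 10 members, and 0 at an unadjusted p under 0.05, where 0.00671% of all genes were called.

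Whether a line with a high level in cortex also had one in liver was tested over the 33 BXD/RwwJ lines in Ctr. By Pearson's r none of 10 members passed after adjustment in Ctr. *Acads* had r = -0.11 and rho = -0.02 (permutation p = 0.545 and 0.898, adjusted 0.908 and 0.998), and r = -0.09 without BXD100 and BXD48. The median r of the 10 members was 0.05, and only *Ivd*, whose clusters are described above, had an unadjusted p under 0.05. With SD levels *Ivd* passed by rho (0.49, adjusted permutation p = 0.0389) and not by r (0.44, adjusted 0.0997, and 0.52 without BXD50 and BXD83), and as its lines fall into clusters the pooled values are no measure of a relation within them.

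The genes whose Ctr level followed that of *Acads* most closely over the 33 lines are given as a description, without a test, since libraries, depth and lines are shared by all genes. In liver, *Bckdha* (r = 0.95), *Ndufv1* (0.94) and *Trap1* (0.94) were among the genes closest to it outside the family. *Bckdha* encodes a subunit of the branched-chain ketoacid dehydrogenase, *Ndufv1* a core subunit of complex I and *Trap1* a mitochondrial chaperone. Without BXD50 and BXD81 the r of *Bckdha* was 0.92, and in SD it was 0.97. Among the members *Acadvl* (0.92), *Acadl* (0.88), *Acad11* (0.86) and *Acadm* (0.85) were closest to *Acads*, and *Acad9* (0.34) and *Acad10* (0.22) were farthest from it. The median r over all 14106 other liver genes was -0.10.

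In cortex the likest genes were *Ptger4* (r = 0.59), *Htatip2* (0.57), *Ddx23* (0.55), *Rcc1* (0.55) and *Lamp1* (0.53). The r of *Ptger4* dropped to 0.22 without BXD100 and BXD48, and that of *Ddx23* was -0.48 in SD. *Acadvl* was again the likest member in Ctr, at r = 0.50 (rho = 0.35) and place 14 among all genes. In SD its r with *Acads* was 0.14, and *Acadl* (0.30), *Acad10* (0.27), *Acad9* (0.26) and *Acadm* (0.25) were higher. With the counting error of *Acads* in cortex close to its line spread, the cortex order of genes is weakly determined.

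**Figure D5:**
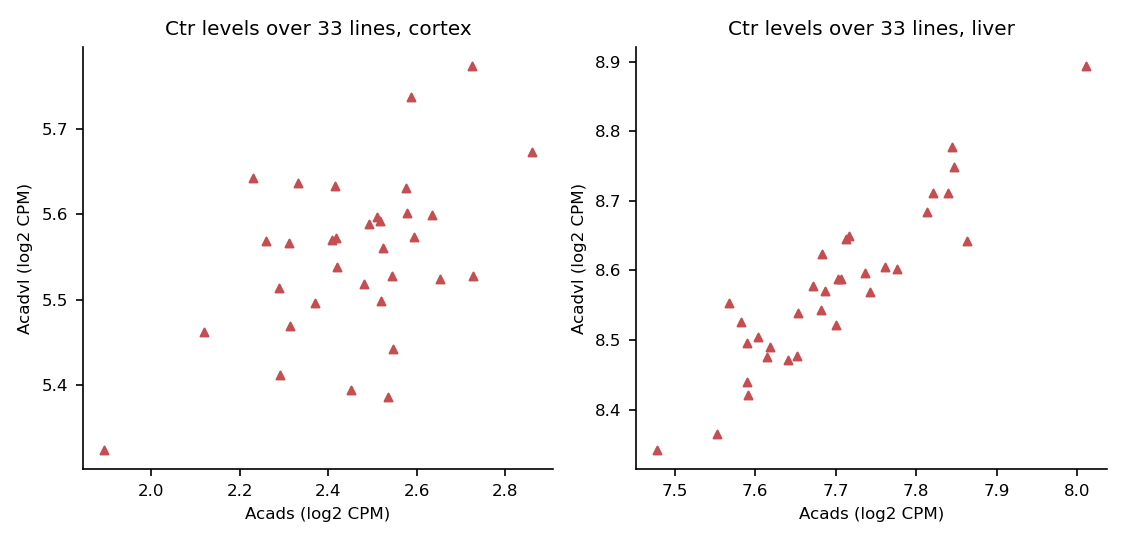
Ctr levels over the 33 BXD/RwwJ lines in cortex (left) and liver (right). The x axis is the Acads level and the y axis the Acadvl level, both in log2 CPM, and each triangle is 1 line. In liver Acadvl follows Acads closely (r = 0.92), and in cortex the points scatter more widely (r = 0.50).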

How the data were processed

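Cortex and liver RNA-seq of 172 pooled libraries was analysed, 156 of the study's 39 pools per tissue and condition and 16 of 4 BXD/TyJ lines. Values are log2 CPM as deposited by the authors, who per their methods prepared stranded mRNA libraries, aligned single-end reads to mm9 with STAR (2-pass), counted RefSeq genes with htseq-count (reverse strand, union), removed genes with few reads and normalized with edgeR's TMM method. Duplicate removal is not given in the sources used here. When the logarithm and scaling were undone, 100% of the values came out as whole reads (tolerance 0.02), and these reads served for depth and for voom.

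Tests were made with limma 3.58.1 in R 4.3.3 (lmFit, eBayes with a variance trend) on log2 CPM over all genes of a tissue, with Benjamini-Hochberg adjustment and a threshold of 0.05. The study's voom weights need counts, so voom on recovered reads was an alternative. Permutation tests (two-sided, 100000 resamples) used scipy 1.17.1 in Python 3.11.15. Gene places and exonic lengths are from GENCODE vM1 on mm9. The fits were tested on simulated data.

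The Ctr and SD pools of a line are paired by the line named in the labels. Deviations of the same line correlated at 0.299 or more in cortex (median 0.614) and at 0.169 or more in liver (median 0.475), against medians of -0.0197 and -0.0180 for different lines.

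The members, the pathway and marker lists and the tests were chosen with earlier results of these data known. Named were all members, Etfa, Etfb, Etfdh and Gcdh, the 2 genes of each pathway list with the largest change past the threshold, and the 5 genes likest to Acads, of which some in liver are not reported here. Alternatives covered library scaling (median-centred, quantile), the variance trend, a filter at a mean log2 CPM of 0, log2(CPM + 1), blocks, voom, and the libraries entered. The runs without D2B6F1 and without BXD81, and the test of the SD response between D2 and B6, were added after seeing the data. After SD the mean library median was 0.0042 higher in cortex, and it differed by -0.0059 in liver.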

Additional observations from a re-analysis of the deposited data

Results flagged for a closer look

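Of 40 groups of 4 BXD/TyJ pools, one for each member, tissue and condition, 5 held a pool far from the other 3. Chance gives about 1 in 20 groups of this kind, but the groups share the same 4 lines and are not independent. BXD29t was low in liver, with *Acads* at 7.46 log2 CPM in SD (others 7.77 to 7.81), *Acadm* at 7.69 in Ctr (others 8.02 to 8.08) and *Acadl* at 7.56 in SD (others 7.89 to 7.96). Its liver libraries held 8722196 reads in Ctr (others 6408479 to 6971803) and 9022854 in SD (others 5887216 to 6519681). The part of depth was not tested. BXD05 stood apart in cortex Ctr, with *Ivd* at 5.93 (others 5.26 to 5.33) and *Acadsb* at 5.91 (others 6.19 to 6.22).

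The SD response differed between liver and cortex by the test of the difference in 8 of 10 members, where 57.6% of all 12695 genes did. *Acadm* was called in 9 of 14 alternatives, *Acadvl* in 10, and *Acads* and *Acad10* in 13. Liver minus cortex was 0.16 for *Acads*, 0.0571 for *Acadm*, -0.0726 for *Acadvl*, -0.118 for *Acad9*, 0.16 for *Ivd*, 0.13 for *Acadsb*, 0.15 for *Acad10* and 0.11 for *Acad11*.

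The SD response of the parental strains went in opposite directions in every pool for 8 members in liver and 1 in cortex. Over all genes, 20.6% did so in liver and 5.78% in cortex. The 8 liver members fell in B6 and rose in D2, as 12.3% of all liver genes did. The log2 depth of B6 over D2 in liver was 0.36 in SD and -0.0082 in Ctr, and its part was not tested. In liver, D2 minus B6 was 0.31 for *Acads*, 0.31 for *Acadm*, 0.24 for *Acadl*, 0.32 for *Acadvl*, 0.35 for *Ivd*, 0.23 for *Acadsb*, 0.22 for *Acad8* and 0.24 for *Acad11*, and the test of this difference passed for *Acadm*, *Acadvl* and *Ivd* alone. In cortex it was -0.16 for *Acadm* and did not pass.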

How the results depend on the processing

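The 5 members called for the SD response in cortex were called under all 14 alternatives, and so was *Acad9* in liver under 16. In liver 2 members were called as deposited, and 1 with median-centred libraries, without a variance trend, with parental pools averaged, without BXD79, BXD85 and BXD101, or without BXD81. A replicate block for the line raised the count from 5 to 7 in cortex (*Ivd*, *Acad11*) and from 2 to 3 in liver (*Acadm*), while the share of all genes called rose from 68.4% to 76.3% and from 44.2% to 53.9%, and the block changed no other call. For B6 against D2 in liver the count was 1 as deposited, 2 with median-centred libraries or with the collection phase as a replicate block, 0 without a variance trend, and 0 to 1 with 1 parental pool left out. For the SD response of D2 against B6 in liver it was 3 as deposited, 8 with median-centred libraries, and 0 with quantile normalization, without a variance trend, or with any 1 parental pool left out, where 0 of all genes were called. The cause of these shifts was not tested.

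Of 1052 values of single members under alternatives, 956 kept direction and call, 41 lost a call, 21 gained one and 34 turned sign, none of the last called. *Acad9* in cortex turned to -0.0141 (quantile), -5.9e-04 (43 pools) and -0.0012 (33 lines). In liver *Acads* turned to -0.0144 (quantile) and -0.0054 (without BXD70), *Acadvl* to -0.0112 and -5.6e-04 under the same settings, and *Ivd* to -0.0154 (quantile), -2.5e-04 (voom), -0.0044 (without BXD70), -6.6e-04 (without sublines) and -0.0029 (without BXD81). For B6 against D2, *Acad9* in cortex turned to -0.0049 and *Acad11* in liver to -0.0385 (quantile), and with 1 parental pool left out *Acads* (-0.19 to 0.22) and *Acad9* (-0.0187 to 0.0223) in cortex and *Acad11* in liver (-0.0024 to 0.0502) took both signs. For the SD response of D2 against B6, *Acadvl* in cortex turned to -0.0026 (quantile), *Acad9* in cortex to 0.0030 and *Acad10* in liver to 0.0100 (median-centred). With 1 pool left out, both signs were taken in cortex by *Acads* (-0.24 to 0.27), *Acadvl* (-0.0147 to 0.0368), *Acad9* (-0.0696 to 0.0574), *Ivd* (-0.14 to 0.12), *Acadsb* (-0.0262 to 0.0830), *Acad8* (-0.0622 to 0.0838) and *Acad11* (-0.0152 to 0.11), and in liver by *Acad10* (-0.15 to 0.0100). Depth limits cortex *Acads* and *Acad10* most, at medians of 118.5 and 92.5 reads. Fewer mice were pooled for 3 lines.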
